A study of Mus musculus with 11 samples.

Results

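The 10 genes described here encode tau, microtubule and neurofilament proteins of neurons: Mapt, Map1a, Map1b, Map2, Tuba1a, Tubb3, Tubb2a, Nefl, Nefm and Nefh. They form a list of names known to belong to these proteins, and all 10 were found among the 53700 gene identifiers counted in the cerebral cortex. Counts came from QuantSeq, which sequences the 3′ end of each mRNA, next to its poly(A) tail. To ask how loss of Abi3 alters cortical expression of these genes in an amyloid mouse model, 6 Abi3 WT animals with both copies of Abi3 were compared with 5 Abi3 KO animals in which both copies were deleted. Abi3 encodes an actin-regulating adaptor protein that in the brain is found mainly in microglia.

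All animals in both groups were female, 8 months old and labelled C57BL/6, and all carried 5xFAD, transgenes of human origin that bear mutations of familial Alzheimer's disease and are driven by the neuronal Thy1 promoter. By the study's methods the 5xFAD parent came from a mixed B6SJL line, and the Abi3 deletion was made in C57BL/6N mice. No animal without the 5xFAD transgenes was analysed here, so each difference given is one between Abi3 genotypes within the amyloid model. The samples were pieces of whole cortex, and in such bulk RNA fewer cells of a type and less RNA per cell cannot be told apart. Raw Abi3 counts were 10 to 38 in Abi3 WT and 0 to 2 in Abi3 KO libraries, as the labels state. The libraries held 3202310 to 5501958 reads in genes. The 10 neuron markers examined were all detected, with summed normalized counts of 23178 to 27876 in Abi3 WT and 26343 to 29605 in Abi3 KO animals. Reads that fell outside genes numbered 59.3 to 68.8 for every 100 reads in genes in Abi3 WT and 49.8 to 62.5 in Abi3 KO libraries, so this property of the libraries moved with genotype.

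Microtubules are hollow polymers of alpha- and beta-tubulin pairs that give neurites their shape and carry axonal transport. Tau, the product of Mapt, binds along axonal microtubules and is the protein that forms neurofibrillary tangles in Alzheimer's disease, while MAP2 binds them in dendrites and MAP1A and MAP1B are further side-binding proteins. Neurofilaments are intermediate filaments built from a light (Nefl), a medium (Nefm) and a heavy chain (Nefh), which set the calibre of large axons, and light chain released into body fluids is used as a marker of axonal injury.

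Beta-tubulin genes are shown first because the coding sequences of tubulins are so alike that reads of one can belong to another. The last 60 bases of the coding sequences lie in the fourth and last exon of each gene, at chr13:34258451-34258510 (minus strand) for Tubb2a, chr13:34311454-34311513 (minus) for Tubb2b and chr8:124148362-124148421 (plus) for Tubb3, in build GRCm39. Capitals mark the bases at which Tubb2a and its neighbour Tubb2b differ. Tubb3, whose tail encodes the epitope region by which neurons are commonly recognised, has no capitals.
Tubb2a: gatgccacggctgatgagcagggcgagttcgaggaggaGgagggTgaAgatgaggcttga
Tubb2b: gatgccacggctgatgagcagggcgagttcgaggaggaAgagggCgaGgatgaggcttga
Tubb3: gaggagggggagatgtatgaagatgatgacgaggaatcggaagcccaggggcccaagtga

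Over the whole coding sequence of 1356 bases Tuba1a and Tuba1b differed at 23 bases (98.3% identity), and their proteins differed at 2 of 451 residues. Tubb2a and Tubb2b differed at 47 of 1338 bases (96.49% identity) and at 2 of 445 residues. In the last 400 bases of the Tuba1a transcript, 203 bases matched Tuba1b at 99.51% and the processed pseudogene Gm17383 at 100%. Gm17383 had 0 counted reads in all 11 libraries together, and the pseudogenes Gm3756 and Gm14150, which matched 203 bases at 99.02% and 98.03%, had 6 and 0. Reads that fit a pseudogene and Tuba1a equally well were left out of the counts, so these numbers do not show whether the pseudogenes are transcribed. The last 400 bases of Tubb3 had only shorter and more distant matches, of 122 to 138 bases at 82.61% to 85.39%. For the other 8 genes, Tubb2a included, the search found no annotated transcript of another gene that matched 60 bases or more of this end in the same direction.

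Tau and MAP2 share repeats through which they hold the microtubule, and each repeat carries a lysine, any residue, glycine and serine, a quartet whose serine is a known target of MARK kinases. Searched on the coding strand of the main annotated transcript, Mapt held 4 such quartets and Map2 held 4, of which the first lay outside the repeats. The 30 bases around 3 of the Mapt quartets and all of those of Map2 are given with the quartet in capitals, at chr11:104201304-104201333, chr11:104212213-104212242 and chr11:104213304-104213333 (exons 7, 9 and 10 of 11) for Mapt, and at chr1:66455147-66455176, chr1:66464631-66464660, chr1:66472709-66472738 and chr1:66477463-66477492 for Map2 (exons 7, 12, 13 and 14 of 15), all on the plus strand of GRCm39.
Mapt 1: gtcaggtcgAAGATTGGCTCTactgagaac
Mapt 2: gtgacctccAAGTGTGGCTCGttagggaac
Mapt 3: gtccagtcgAAGATTGGCTCCttggataat
Map2 1: gcagaacccAAGGATGGCTCTccagatgct
Map2 2: gtcaagtccAAAATCGGATCAactgacaac
Map2 3: gtgacatccAAATGTGGCTCTctaaagaac
Map2 4: gcccaagctAAAGTTGGCTCActtgacaat

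At least 1 quartet was found in 12.3% of the 21574 genes with an annotated coding sequence, and 4 or more in 0.107%. The second feature shown is the lysine-serine-proline triplet of the neurofilament tails, whose serine is phosphorylated in axons. Stretches of 60 bases with the triplets in capitals come from exon 3 of 3 of Nefm at chr14:68358512-68358571 (minus strand) and from exon 4 of 4 of Nefh at chr11:4891010-4891069 (minus strand).
Nefm: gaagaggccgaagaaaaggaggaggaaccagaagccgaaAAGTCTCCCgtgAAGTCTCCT
Nefh: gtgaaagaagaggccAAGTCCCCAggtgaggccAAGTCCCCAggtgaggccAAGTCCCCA

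The coding sequence of Nefh held 51 triplets, the most of any gene, followed by Efcab3 with 11 and Pclo with 9. Nefm and Map1a held 4 each, Map1b held 3, Mapt and Map2 held 2 each, and Nefl and the 3 tubulin genes held none. Of all 21574 coding sequences 10.6% had at least 1 triplet and 0.162% had 4 or more. These features describe the genes, and phosphorylation was not measured.

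Of the 10 genes, 1 passed the threshold of the test across all genes. Tuba1a, an alpha-tubulin gene, rose 1.17-fold in Abi3 KO cortices with an adjusted p of 0.0489. The log2 fold changes of the other 9 lay between -0.02 for Map2 and 0.21 for Nefl, and none of them passed. The threshold was a DESeq2 p of 0.05 after Benjamini-Hochberg adjustment over the 6487 genes abundant enough to be given an adjusted p. It was met by 95 of the 17626 genes tested (0.539%), 60 of them higher (0.34%) and 35 lower (0.199%). Adjusted over all genes fitted, with independent filtering off, Tuba1a had a DESeq2 adjusted p of 0.118 and did not pass. When libraries were scaled to their totals, 14 of the genes past the threshold were higher and 39 lower. Among the 6487 genes abundant enough to be given an adjusted p, which included all 10 genes, the share past the threshold was 1.46%, and 0.925% of them were past it and higher. At an unadjusted p under 0.05 the count was 2 of the 10, Tuba1a and Nefl, against 11.8% of those 6487 genes and 8.58% of all genes tested; edgeR and limma passed none of the 10, with an unadjusted p under 0.05 for 2 and 3 of them. The median log2 fold change of the 10 genes was 0.09 and that of the 6487 genes was 0.03. The log2 fold change was above 0 for 8 of the 10 genes, and for 6 of them when libraries were scaled to their totals, and it was above 0 for 56.1% of the 6487 genes. The values of the groups overlapped for all 10 genes, where they did not overlap for 1.04% of all genes tested.

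**Figure D1:**
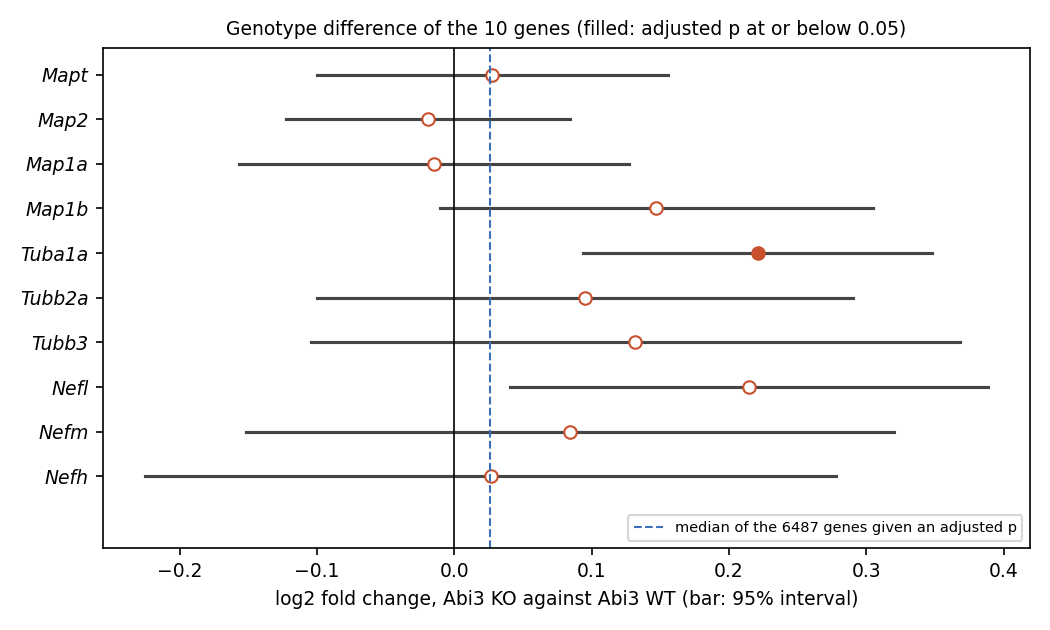
Log2 fold change of each of the 10 genes, Abi3 KO against Abi3 WT, from DESeq2 (points) with the 95% interval (bars); a filled point has an adjusted p at or below 0.05 and the dashed line is the median of 6487 genes. Tuba1a alone is filled, and the intervals of Tuba1a and Nefl are the 2 that do not reach 0.

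Tuba1a (ENSMUSG00000072235, chromosome 15, 98847714 to 98851589) is the main alpha-tubulin of developing and growing neurons. Its normalized count, the read count divided by the DESeq2 size factor of the library, was 1545 at the lowest, 1559.9 at the median and 1751 at the highest in Abi3 WT animals. In Abi3 KO animals 1 to 5 it was 1902, 1879, 1826, 1686 and 2094. Replicates 1, 2, 3 and 5 of Abi3 KO lay above all Abi3 WT animals, while replicate 4 lay below the 2 highest of them, so the groups overlapped. The mean was 1610.2 ± 89.0 (SD, n = 6) and 1877 ± 147.2 (SD, n = 5), a log2 fold change of 0.22 (SE 0.0649, 95% interval 0.09 to 0.35). Abi3 KO replicate 4, the lowest of its group, also had the most reads outside genes per 100 in genes of its group (62.5). With that measure as a covariate the log2 fold change was 0.10 with an adjusted p of 1.00 from DESeq2. The measure moved with genotype, so the measure and genotype cannot be told apart in this fit, and the part of the measure was not tested. Over 14 alternatives Tuba1a passed in 1, and over the 11 fits without a given animal it passed in 4 (adjusted p 0.015 to 0.16).

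Reads that fit both Tuba1a and Tuba1b equally well were left out of the counts. The counts of the alpha-tubulin pair were also added up, and the sum lacks those shared reads too. Tuba1b had a normalized count of 1127 ± 76.6 (SD, n = 6) in Abi3 WT and 1291 ± 101 (SD, n = 5) in Abi3 KO animals, with 4 Abi3 KO animals above every Abi3 WT animal (log2 fold change 0.20, SE 0.0711, DESeq2 adjusted p = 0.155). The sum of Tuba1a and Tuba1b was 2626 to 2910.1 in Abi3 WT and 2921 to 3512 in Abi3 KO animals. All 5 Abi3 KO animals thus had a higher sum than the highest Abi3 WT animal, a separation seen after the single genes had been examined and not tested. The log2 ratio of the mean sums was 0.21, close to that of each gene alone.

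**Figure D2:**
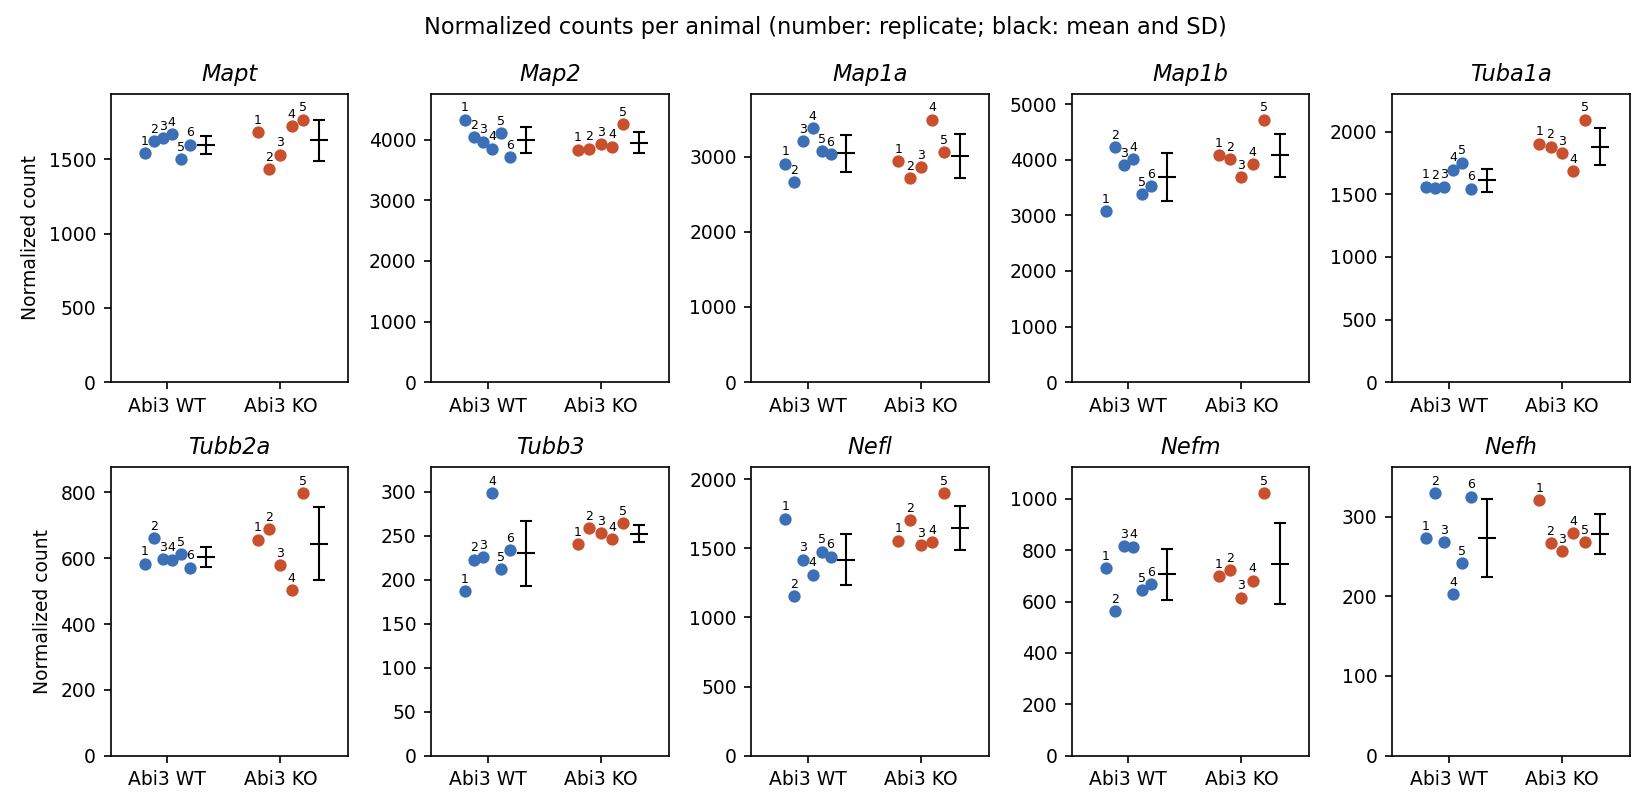
Normalized count (vertical axes, from 0) of each of the 10 genes in the 6 Abi3 WT and 5 Abi3 KO animals; points are animals, numbered by replicate, and black marks give the mean and SD. The points of the groups overlap in all 10 panels, and Abi3 KO replicate 5 is the highest point of its group in 8 of them.

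Tubb2a (ENSMUSG00000058672, chromosome 13, 34257549 to 34261998) encodes a beta-tubulin that is abundant in neurons. Its normalized count was 571.3 at the lowest, 596.4 at the median and 660.4 at the highest in Abi3 WT animals. The 5 Abi3 KO animals, in replicate order, had 656.5, 687.8, 578.9, 503.7 and 797.7. The Abi3 KO animals held both the lowest and the highest value of the 11, and their coefficient of variation was 17.3% against 5.17% in Abi3 WT. Tubb2a had a log2 fold change of 0.10 (SE 0.0997, 95% interval -0.10 to 0.29, adjusted p = 0.758 from DESeq2), which was -0.25 with reads outside genes as a covariate. Normalized counts of Tubb2b, its near-identical neighbour, were 423.6 ± 77.9 (SD, n = 6) in Abi3 WT and 397.2 ± 63.5 (SD, n = 5) in Abi3 KO animals. The sum of the pair was 905.6 to 1151 in Abi3 WT and 953.2 to 1268 in Abi3 KO animals, so the beta-tubulin pair did not part the groups as the alpha-tubulin pair did.

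Tubb3 (ENSMUSG00000062380, chromosome 8, 124138163 to 124150092) encodes the class III beta-tubulin used as a marker of neurons. Its normalized count was 187.2 at the lowest, 224.4 at the median and 298.2 at the highest in Abi3 WT animals. The Abi3 KO values of replicates 1 to 5 were 240.2, 258.6, 253.1, 246.2 and 264.0. All 5 Abi3 KO animals lay above 5 of the 6 Abi3 WT animals and below the sixth, Abi3 WT replicate 4, which had the highest value of all. The Abi3 KO values lay within a narrow band (coefficient of variation 3.77%, against 16.1% in Abi3 WT). Tubb3 had a log2 fold change of 0.13 (SE 0.120, 95% interval -0.10 to 0.37) with an adjusted p of 0.714 from DESeq2. Raw counts of Tubb3 were 164 to 350.

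Tau and the other microtubule-associated proteins showed no difference that passed the test. Mapt (ENSMUSG00000018411, chromosome 11, 104122024 to 104222946), which lies 8.39 Mb from the deleted Abi3 gene, had normalized counts of 1501 at the lowest, 1611 at the median and 1669 at the highest in Abi3 WT animals. Those of Abi3 KO replicates 1 to 5 were 1685, 1432, 1533, 1723 and 1767. Replicates 1, 4 and 5 of Abi3 KO lay above all Abi3 WT animals and replicate 2 lay below all of them, so the Abi3 KO values enclosed those of Abi3 WT. The mean was 1597 ± 63.5 (SD, n = 6) in Abi3 WT and 1628 ± 140.7 (SD, n = 5) in Abi3 KO animals. The log2 fold change was 0.03 (SE 0.0652), with a 95% interval of -0.10 to 0.16 that corresponds to 0.933-fold to 1.11-fold, and the DESeq2 adjusted p was 0.921. Because reads came from the 3′ end, which the tau splice forms share, the number of repeats in the protein was not resolved.

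Map2 (ENSMUSG00000015222, chromosome 1, 66214327 to 66481746), the dendritic relative of tau, had the narrowest interval of the 10 genes. Its normalized count was 3709 at the lowest, 4005 at the median and 4329 at the highest in Abi3 WT animals. Abi3 KO replicates 1 to 5 had 3838, 3850.2, 3922, 3884 and 4252. The values of 4 Abi3 KO animals lay close together in the lower part of the Abi3 WT range, and replicate 5 lay near its top. Map2 differed by a log2 fold change of -0.02 (SE 0.0527, 95% interval -0.12 to 0.08, adjusted p = 0.933 from DESeq2). The ratio of raw Map2 to Mapt counts within an animal was 2.31 to 2.80 in Abi3 WT and 2.25 to 2.69 in Abi3 KO animals.

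Map1a and Map1b encode related side-binding proteins, of which MAP1A is the form of mature and MAP1B that of growing neurites. Map1a (ENSMUSG00000027254, chromosome 2, 121120071 to 121141313) had normalized counts of 2658 at the lowest, 3051 at the median and 3381 at the highest in Abi3 WT animals. In Abi3 KO animals 1 to 5 they were 2939, 2712, 2858, 3489.8 and 3057. Apart from replicate 4, which was the highest of all 11, the Abi3 KO values lay within the Abi3 WT range. The log2 fold change was -0.01 (SE 0.0725, adjusted p = 0.965 from DESeq2), and 0.14 with reads outside genes as a covariate. Map1b (ENSMUSG00000052727, chromosome 13, 99557954 to 99653137) had normalized counts of 3075 at the lowest, 3714 at the median and 4224 at the highest in Abi3 WT animals. Those of Abi3 KO replicates 1 to 5 were 4079.5, 4012, 3684, 3919 and 4719. The highest value was again Abi3 KO replicate 5, the lowest was Abi3 WT replicate 1, and 3 Abi3 WT animals lay below every Abi3 KO animal. The log2 fold change of Map1b was 0.15 (SE 0.0804, 95% interval -0.01 to 0.30), and its adjusted p from DESeq2 was 0.467. With reads outside genes as a covariate the log2 fold change of Map1b was 0.006. The ratio of Map1b to Map1a counts was 1.06 to 1.59 in Abi3 WT and 1.12 to 1.54 in Abi3 KO animals, so the groups overlapped in this ratio too.

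Among the neurofilament chains, Nefl had the largest difference and did not pass the test. Nefl (ENSMUSG00000022055, chromosome 14, 68321268 to 68326544), the light chain on which the filament core is built, had normalized counts of 1156 at the lowest, 1429 at the median and 1714 at the highest in Abi3 WT animals. Abi3 KO replicates 1 to 5 had 1555, 1704, 1522, 1545 and 1899. All 5 Abi3 KO animals lay above 5 of the 6 Abi3 WT animals, and only Abi3 WT replicate 1 reached into their range. The mean was 1419 ± 185.5 (SD, n = 6) and 1645 ± 159.2 (SD, n = 5), a log2 fold change of 0.21 (SE 0.0886, 95% interval 0.04 to 0.39). The DESeq2 adjusted p was 0.258, at an unadjusted p of 0.0154. Without Abi3 WT replicate 1 the log2 fold change was 0.28 with an adjusted p of 0.0477, and leaving out any other animal gave no adjusted p at or below 0.05 (up to 0.456).

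Nefm (ENSMUSG00000022054, chromosome 14, 68320039 to 68362305), the medium chain, has an annotated span that encloses that of Nefl on the opposite strand, and the strand-aware counting kept the chains apart. Its normalized count was 562.1 at the lowest, 699.6 at the median and 814.8 at the highest in Abi3 WT animals. The Abi3 KO values of replicates 1 to 5 were 698.4, 721.2, 614.7, 681.0 and 1022. All but 1 of the Abi3 KO values lay within the Abi3 WT range, the exception being replicate 5, and without that animal the log2 fold change was -0.05 in place of 0.08 (SE 0.120, adjusted p = 0.839 from DESeq2). With all animals and reads outside genes as a covariate it was -0.12. Nefh (ENSMUSG00000020396, chromosome 11, 4888740 to 4898130), the heavy chain with its 51 triplets, had normalized counts of 202.8 at the lowest, 270.3 at the median and 329.2 at the highest in Abi3 WT animals. In Abi3 KO animals 1 to 5 they were 320.9, 266.6, 256.6, 279.0 and 267.4. The Abi3 KO values all lay within the Abi3 WT range. The log2 fold change was 0.03 (SE 0.128, 95% interval -0.22 to 0.28, adjusted p = 0.964 from DESeq2), the widest interval of the 10 genes, and raw counts were 215 to 492.

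The chains were also set against each other within each animal, which needs no scaling between libraries. The ratio of Nefm to Nefl counts was 0.426 to 0.621 with a median of 0.475 in Abi3 WT animals, and 0.404 to 0.538 with a median of 0.441 in Abi3 KO animals. The ratio of Nefh to Nefl was 0.155 to 0.285 in Abi3 WT and 0.141 to 0.206 in Abi3 KO animals. Both ratios overlapped between the genotypes, and so did those of the beta-tubulins to the alpha-tubulin. Tubb2a per Tuba1a was 0.35 to 0.426 in Abi3 WT and 0.299 to 0.381 in Abi3 KO animals, and Tubb3 per Tuba1a was 0.12 to 0.176 and 0.126 to 0.146. These ratios compare counts of 3′ ends and are not ratios of molecules.

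Animals differed in how far the 10 genes moved together. Abi3 KO replicate 5 had the highest value of all 11 animals for 6 of the 10 genes, and the highest of its group for 8. The median deviation of the 10 genes from their 11-animal means, on the log2 scale of normalized count + 1, was 0.21 in this animal and lay between -0.08 and 0.06 in the other 10. The median deviation of the 10 neuron markers was 0.14 in Abi3 KO replicate 5, also the highest of the 11 animals, and its part in these values was not tested. Without this animal Tuba1a had a log2 fold change of 0.18 and a DESeq2 adjusted p of 0.139. Nefh did not follow, with a deviation of -0.03 in Abi3 KO replicate 5 and its highest values in Abi3 WT replicates 2 and 6.

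**Figure D3:**
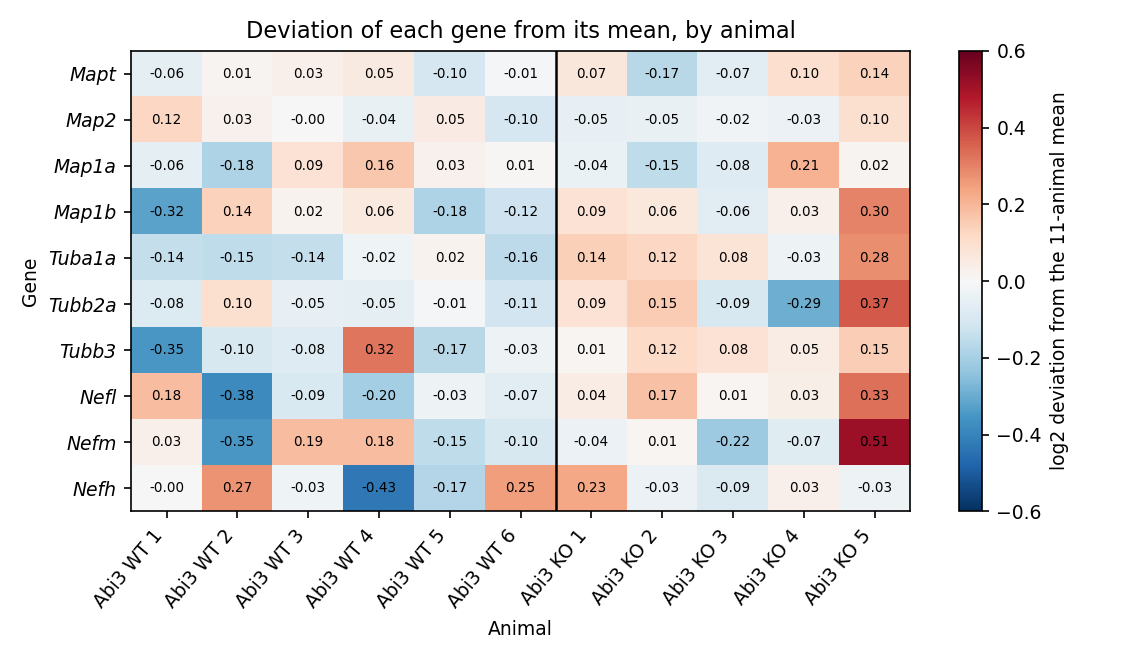
Log2 deviation of each of the 10 genes (rows) from its mean over the 11 animals (columns; colour scale and printed values in log2 units). The column of Abi3 KO replicate 5 is above 0 for all genes but Nefh, with the largest value of the plot, 0.51, for Nefm.

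Genes that moved across the 11 animals most like Mapt, Tubb3 and Nefl were taken as a description, by the mean absolute difference of their z-scored log2 counts from those of the gene, among 7779 genes. For Mapt they were Tmem132d (0.319), Pik3ca (0.373) and Nrgn (0.377), the last encoding neurogranin, a postsynaptic calmodulin-binding protein. For Tubb3 they were Wdr26 (0.317), Zfp770 (0.354) and Zfp365 (0.357). For Nefl they were Ly6e (0.173), Slc25a1 (0.369) and Tspan7 (0.396). The median gene had a difference of 1.08 from each of the 3 genes, and 1% of genes lay under 0.572 for Mapt, 0.533 for Tubb3 and 0.582 for Nefl. All points share the same 11 libraries, and none of the other 9 genes was among those named.

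Around these genes, 171 further genes of microtubules, filaments, their partners and their regulators, not all of them neuronal, were examined in 12 lists. Of these 166 were tested and 127 were given an adjusted p. The threshold was passed by 2, both higher in Abi3 KO cortices, against 0.539% of all genes tested and 1.46% of those given an adjusted p. Both lie on chromosome 11, which also holds the deleted Abi3 gene, and the part of that position in their differences was not tested. An unadjusted p under 0.05 was found for 22 of the 166, of which 19 had a higher and 3 a lower mean. The shares over all genes tested and over those given an adjusted p were 8.58% and 11.8%. The 22 genes were thus more than either share would give, and this excess was not tested. Among genes given an adjusted p the median log2 fold change was 0.05 for the 127 and 0.03 for the 6487. With library totals the median of the 166 genes was 0.00428 in place of 0.04, with 85 above and 81 below 0. Pafah1b1, which encodes the dynein regulator LIS1, rose from a mean normalized count of 1009 ± 60.02 (SD, n = 6) in Abi3 WT to one of 1194 ± 38.3 (SD, n = 5) in Abi3 KO animals. Its values did not overlap between the groups (908.6 to 1091 and 1146 to 1245), and the log2 fold change was 0.24 with a DESeq2 adjusted p of 0.0183. Ppp3r1, which encodes the regulatory subunit of calcineurin, a phosphatase that acts on tau, rose from 1358 ± 165.3 (SD, n = 6) in Abi3 WT to 1694 ± 107.4 (SD, n = 5) in Abi3 KO animals, likewise without overlap. Its log2 fold change was 0.32 and its DESeq2 adjusted p 0.0157. Each of the 2 genes passed in 9 of 11 fits when animals were left out in turn, and neither passed with edgeR, with limma, with library totals or with reads outside genes as a covariate (adjusted p up to 1.00). With the replicate number as a block Ppp3r1 passed and Pafah1b1 did not (adjusted p = 0.0769 from DESeq2).

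Within each list the extremes named are those among genes whose normalized counts averaged 50 or more, and genes of fewer reads could lie further out. Other tubulins had 13 genes tested, of which none passed and Tuba1b, Tuba4a and Tubb5 had an unadjusted p under 0.05. Tubb5, the broadly expressed beta-tubulin, had a normalized count of 1285 ± 110 (SD, n = 6) in Abi3 WT and 1475 ± 151.1 (SD, n = 5) in Abi3 KO animals (log2 fold change 0.20, DESeq2 adjusted p = 0.227). Tuba4a, an alpha-tubulin of mature neurons, had 1049 ± 87.3 (SD, n = 6) in Abi3 WT and 1192 ± 127.6 (SD, n = 5) in Abi3 KO animals (log2 fold change 0.18, DESeq2 adjusted p = 0.299). By the rule for naming, the extremes of this list were Tubb4a with a log2 fold change of 0.25 and Tubg2 with -0.11. The 18 other structural microtubule-associated proteins had a median of -0.02, from Map1s with -0.46 (adjusted p = 0.207), a light relative of Map1a and Map1b, to Camsap3 with 0.28. In the list of intermediate filaments other than the neurofilament chains, 8 were tested, with Gfap, the astrocyte filament, at 0.24 and the lamin gene Lmna at -0.01, and none passed.

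Regulators of microtubule ends and length did not pass either, and the extremes named are again those at a mean count of at least 50. Among 10 plus-end binding proteins Mapre1 (EB1) had a log2 fold change of 0.22 and Nav1 one of -0.07, with a list median of 0.03 that turned to -0.00593 under library totals. Among 11 stathmins and severing enzymes Stmn2, a tubulin-binding protein of regenerating axons, had 769.1 ± 85.2 (SD, n = 6) in Abi3 WT and 946.2 ± 99.9 (SD, n = 5) in Abi3 KO animals (log2 fold change 0.30, DESeq2 adjusted p = 0.0641), and Spast had a log2 fold change of -0.26. Tubulin modifying enzymes (17 tested) ran from Ttl with -0.12 to Agtpbp1 with 0.18, and tubulin folding cofactors (6 tested) from Tbce with -0.22 to Tbcb with 0.14. The medians of these 3 lists were 0.16, -0.04 and -0.01, and with reads outside genes as a covariate that of the modifying enzymes was 0.05, with 11 of 17 above 0 in place of 6.

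Transport motors and tau-modifying enzymes completed the lists, with extremes again taken at a mean count of at least 50. The 15 kinesins tested had a median of 0.04 with 10 above 0, which turned to -0.04 with 5 above 0 under the covariate, and ran from Kif21b with -0.08 to Kif3a with 0.20. The dynein and dynactin list of 21 genes, which holds Pafah1b1, had a median of 0.15, with 18 genes above 0 (17 under library totals, 15 with a median of 0.10 under the covariate), and ran from Dync1i2 with -0.06 to Dctn5 with 0.37. The 23 tau kinases had a median of -0.03, from Ttbk1 with -0.32 to Ttbk2 with 0.32, and none passed. The 12 tau phosphatases, which include Ppp3r1, had a median of 0.15 with 11 genes above 0, and the exception was Ppp2r2a with -0.12. In the dynein and phosphatase lists 5 genes each had an unadjusted p under 0.05, where the shares over genes given an adjusted p were 11.8% under 0.05 and 56.1% above 0. Under the covariate the median of the phosphatases was 0.01, with 7 genes above 0. The 12 partners of the axon cytoskeleton had a median of 0.02 (-0.02 under library totals), from Plec with -0.07 to Sptbn4 with 0.18. No list was compared with another by a test.

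**Figure D4:**
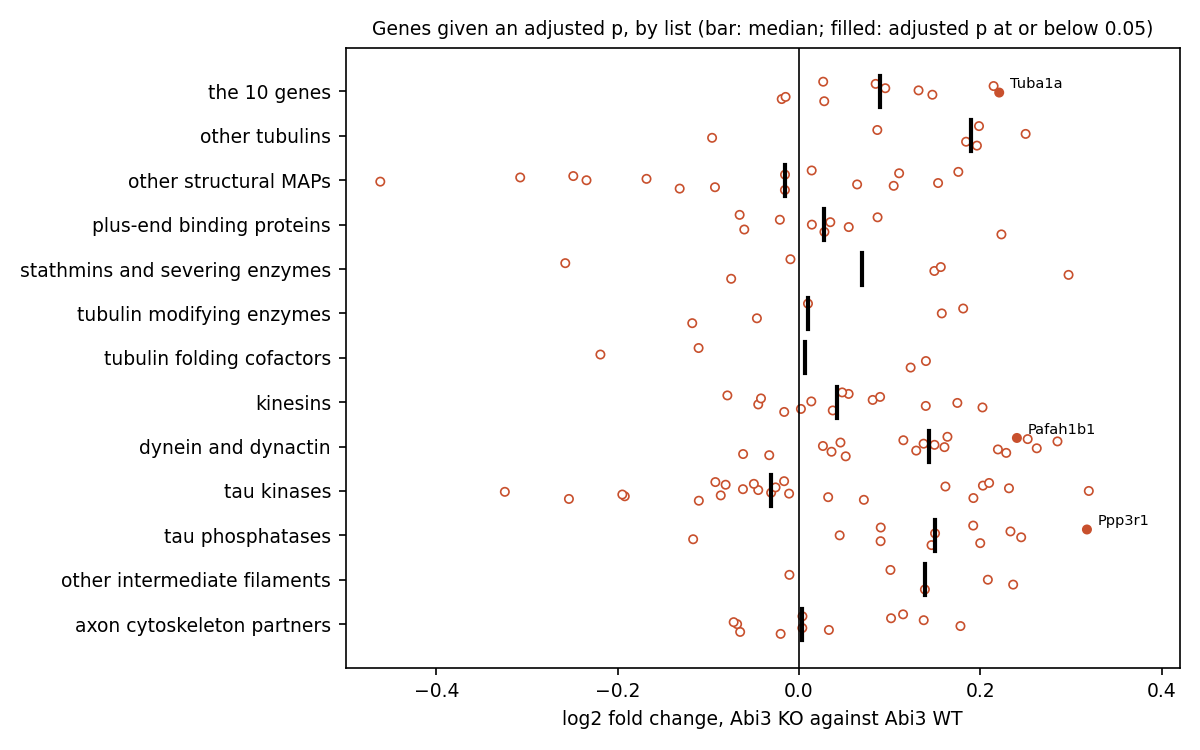
Log2 fold change, Abi3 KO against Abi3 WT, of the genes given an adjusted p in the list of 10 genes and in each of the 12 related lists; bars are list medians and filled points have an adjusted p at or below 0.05. Tuba1a, Pafah1b1 and Ppp3r1 are the 3 filled points.

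Markers of cell types were measured beside these results, since the 10 genes are largely neuronal, and none of the markers in 9 lists passed the threshold with DESeq2 (7 of 56 had an unadjusted p under 0.05), nor did any with edgeR or limma. The 10 neuron markers had a median log2 fold change of 0.11 with 8 above 0, from Gad2 with -0.18 to Stmn2 with 0.30, and 3 had an unadjusted p under 0.05. Their median was thus close to that of the 10 cytoskeleton genes. Under the covariate the median was 0.04 for the neuron markers, with 6 of 10 above 0, and 0.07 for the 10 cytoskeleton genes, with 7 above 0. The part of the neuron markers in the differences was not tested. Markers of large projection neurons and fast-spiking cells, which are rich in neurofilaments, had a median of -0.11 with 6 of 8 below 0, from Kcnc1 with -0.22 to Pvalb with 0.30, and 0.00958 with 4 of 8 below 0 under the covariate. Their sum was 2853 to 3297 in Abi3 WT and 2506 to 2939.8 in Abi3 KO animals. The medians were 0.17 for oligodendrocytes (7 of 7 above 0, from Mbp with 0.03 to Mal with 0.32), 0.18 for microglia (from Csf1r with -0.05 to C1qa with 0.47) and -0.11 for astrocytes (from Slc1a3 with -0.15 to Gfap). They were 0.21 for oligodendrocyte precursors (Cspg4 0.15, Pdgfra 0.35), -0.07 for endothelium (Pecam1 -0.12, Flt1 0.27) and -0.18 for striatal neurons (Adora2a -0.30, Ppp1r1b -0.06). Under the covariate these medians were, in the order given, 0.41, 0.25, -0.10, 0.28, -0.16 and -0.31. Extremes of the marker lists are again among genes with a mean count of at least 50, and Stmn2, Gfap and Mag also stand in the related lists. Choroid plexus markers had a median of 0.28, and Ttr, their most abundant gene, ranged from 34.8 to 3447 normalized counts in Abi3 WT and from 72.7 to 2270.3 in Abi3 KO animals.

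The calls on Tuba1a and Nefl were recomputed under each processing choice. Tuba1a kept a positive log2 fold change throughout, of 0.10 to 0.22 over the 14 alternatives and 0.18 to 0.26 without 1 animal, whereas its adjusted p lay above the threshold in most settings. It was 0.311 with edgeR and 0.221 with limma, 0.118 with independent filtering switched off and 0.0504 when genes of low mean count were removed before the adjustment. Nefl had a log2 fold change of 0.15 to 0.23 over the same 14 alternatives and passed in none of them.

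**Figure D5:**
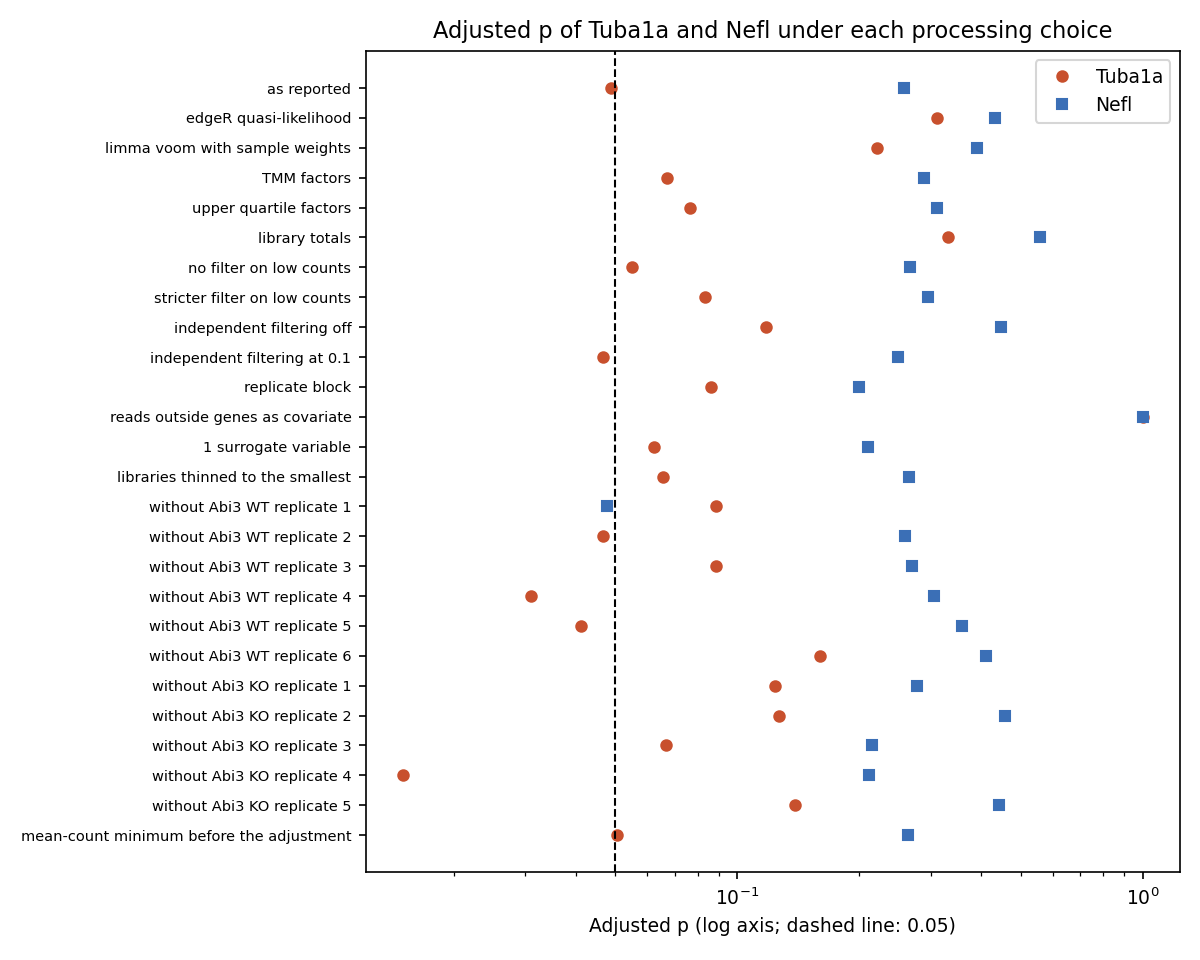
Adjusted p (log axis) of Tuba1a (circles) and Nefl (squares) under each processing choice; the dashed line is 0.05. Tuba1a lies left of the line in the reported setting, in 1 alternative and in 4 fits without 1 animal, and Nefl in 1 fit, without Abi3 WT replicate 1.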

How the data were processed

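Cortical QuantSeq libraries of 6 Abi3 WT and 5 Abi3 KO mice were analysed, grouped by their labels. The authors trimmed single-end reads, aligned them with STAR (version 2.7.3a) to GRCm39 and assigned unique reads to genes by strand with htseq-count (HTSeq version 0.9.1). The deposited counts are unnormalized reads per gene, and removal of PCR copies is not mentioned. Unique counting drops reads that fit near-identical genes equally well, and reads near the poly(A) tail do not allow levels to be compared between genes. Names came from GENCODE vM39, which matched 52610 of 53700 identifiers, and sequences from its main transcripts. The ends of these were searched with BLAST (version 2.17.0) against all its transcripts for copies over at least 60 bases.

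Genotypes were compared with DESeq2 (version 1.42.0) in R (version 4.3.3), with no further term in the model, following the methods of the study. The fit took genes with a total count of 10 or more, and the results those with a mean normalized count of 1.5 or more. Adjusted p-values were Benjamini-Hochberg values with independent filtering aimed at 0.05. The adjustment ran over 6487 genes, and genes under a mean count of 70.39 were given none. A 95% interval is 1.96 standard errors on either side. With 3202310 to 5501958 reads in genes per library, 3 counts correspond to 0.545 to 0.937 CPM, a floor that covers counting error only.

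The 10 genes and all lists were chosen with earlier results of these data known. Named beside the 10 genes are, per list, the genes past the threshold and the genes with the largest and smallest log2 fold change at a mean count of at least 50, the 3 genes most like Mapt, Tubb3 and Nefl, and near-identical copies. Tuba4a and Tubb5 were named after their values were seen. Alternatives were edgeR (version 4.0.16), limma (version 3.58.1) with sample weights, other size factors and filters, the replicate number as a block, reads outside genes as a covariate, 1 surrogate variable from sva (version 3.50.0), thinning and leaving out each animal. Removing genes of low mean count before the adjustment was added after seeing the data. Fits were tested on simulated data. The labels name no batch and do not say whether animals shared a litter. Some sequences are not reported here.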

Additional observations from a re-analysis of the deposited data

Results flagged for a closer look

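Of the 20 sets of values examined (10 genes in each genotype), 2 held an animal whose distance from its nearest neighbour was a large share of the range of its group by Dixon's criterion, and chance alone gives about 1 in 20. Both were Abi3 KO replicate 5. Map2 had 4252 normalized counts in this animal against 3922 in the next highest Abi3 KO animal, a gap of 0.797 of the range. Nefm, the medium neurofilament chain, had 1022 against 721.2, a gap of 0.739 of the range. The reads outside genes of this library (51.1 per 100 in genes) and its share of mitochondrial reads (20.2%) lay within the range of the other Abi3 KO libraries, and the cause was not tested.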

How the results depend on the processing

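The number of genes past the threshold was 95, and it was 25 with edgeR, 17 with limma, 53 with library totals, 57 with independent filtering off, 30 with the replicate block, 3 with reads outside genes as a covariate, and 46 to 120 without 1 animal. Of the 10 genes 1 passed, Tuba1a, and 0 passed under edgeR, limma, TMM, upper quartile factors, library totals, either change of the low-count filter, filtering off, the replicate block, the covariate, 1 surrogate variable, thinned libraries and the mean-count minimum applied before the adjustment; the range without 1 animal was 0 to 1. Without Abi3 WT replicate 1 that 1 gene was Nefl. Of the related genes 2 passed, 0 under edgeR, limma, library totals and the covariate, and 1 to 4 without 1 animal. The lowest counts over all genes without 1 animal followed leaving out Abi3 KO replicates 2 (46) and 5 (47).

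Small log2 fold changes turned sign. Under library totals they were -0.00699 for Mapt and -0.0100 for Nefh. With the covariate they were 0.14 for Map1a, -0.25 for Tubb2a and -0.12 for Nefm. Nefh was -0.00250 with 1 surrogate variable, a variable that set Abi3 KO replicate 1 (0.932) apart from the others, and -0.00905 with thinned libraries. Without 1 animal the ranges were -0.00146 to 0.0711 for Mapt, -0.0452 to 0.00493 for Map2, -0.0720 to 0.0208 for Map1a, -0.0513 to 0.147 for Nefm and -0.0458 to 0.0911 for Nefh. The cause was not tested.

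The replicate numbers are shared between the groups by name only. Deviations of same-numbered animals from their group means correlated at -0.0198 to 0.123 over genes, and 2 of 5 Abi3 KO animals correlated best with their own number. With the replicate block Tuba1a had a log2 fold change of 0.21 and an adjusted p of 0.0863. The block left Ppp3r1 past the threshold and not Pafah1b1. At this depth genes under a mean count of 70.39 were given no adjusted p.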
